A study of Mus musculus with 4 samples.

Results

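The cytosolic ribosomal protein genes were followed through RNA-seq of whole mouse lung at embryonic day 16.5 (E16.5). Genes were taken by symbol: Rpl or Rps followed by a digit, together with Rpsa, Rplp0, Rplp1 and Rplp2, without the Rps6k kinases and without symbols of pseudogenes. Of 22556 genes in the table, 86 had such a symbol, and 82 of these were selected on their measured level, a mean FPKM across all 4 libraries of 1 or more. FPKM counts fragments per kilobase of transcript, scaled to the mapped reads of the library, so it compares levels between genes of different length. The 82 genes comprised 42 of the large subunit, 31 of the small subunit, the 3 genes of the P stalk (Rplp0, Rplp1 and Rplp2), 5 paralogs (Rpl7l1, Rpl22l1, Rpl36al, Rps27l and Rps4y2) and Rps19bp1, whose product binds RPS19 but is no ribosomal subunit. Since the mean level chose them, abundance is given as a description. The rule did not use the difference between genotypes, although earlier results of these data were known when the family was chosen.

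A ribosome is built from ribosomal RNA and a set of ribosomal proteins, nearly all present in a single copy, so the cell needs these proteins in matched amounts. Their mRNAs are among the most abundant of any growing tissue, and most begin with a C followed by a run of pyrimidines, the 5' terminal oligopyrimidine (TOP) tract, through which the growth kinase complex mTORC1 controls their translation. STK11, also known as LKB1, is a tumour suppressor kinase that activates AMPK, and AMPK in turn restrains mTORC1. TOP control acts on translation, which RNA-seq of total RNA does not measure.

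The study asked how loss of Stk11 in the endoderm-derived epithelium changes the transcriptome of the embryonic lung. Control embryos were Shh-Cre; Stk11F/+ (n = 2) and Shh-Stk11 embryos were Shh-Cre; Stk11F/F (n = 2). Both genotypes therefore carried the Shh-Cre driver, which acts in the endoderm and so in the airway and alveolar epithelium, and the Control embryos had already lost 1 Stk11 allele there. The labels give the strain as C57BL/6, whereas the methods describe mixed backgrounds. RNA came from whole lung, in which mesenchyme, endothelium and blood kept Stk11, and in such bulk RNA fewer cells of a type and less RNA per cell cannot be told apart.

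Stk11 stood at 44.0 and 45.5 FPKM in Control and at 29.5 and 26.0 in Shh-Stk11 (log2 fold change -0.69, limma adjusted p 0.0499). From the spacing of the lowest values the libraries held about 30.7 to 37.9 M reads, at which 1 FPKM on a transcript of 500 bases equals 15.4 to 18.97 reads. Such spacing was seen in 73.5% of 1806 low genes within a tolerance of 0.03, so these depths are estimates. Shh-Stk11 2 alone carried Y-linked transcripts beyond traces (Ddx3y at 23.5 FPKM, at most 0.0285 elsewhere), and its Xist level was 0.239 FPKM against 65.1 to 169 in the other 3. Of 10 lung epithelium markers, 7 were higher and 3 lower by sign in Shh-Stk11, with a median log2 fold change of 0.18. The lung transcription factor Nkx2-1 was at 170 and 178 FPKM in Control and 207 and 196 in Shh-Stk11, and only Foxj1, of ciliated cells, passed the test (log2 fold change -1.71, limma adjusted p 0.00329). The summed level of the 10 was 18406 and 16683 FPKM in Control and 9183 and 13462 in Shh-Stk11, most of it from the surfactant gene Sftpc (17426 and 15784 against 8005 and 12048 FPKM). Tested markers of red blood cells were lower by sign in 8 of 8, none at 0 and only the embryonic globin gene Hba-x past the threshold (limma adjusted p 0.0158), with a summed level of 5595 and 5810 FPKM in Control and 3745 and 4107 in Shh-Stk11. Endothelial markers were lower by sign in 6 of 6 (summed 639 and 542 against 438 and 469 FPKM) and mesenchymal markers in 7 of 7 (1334 and 1224 against 1122 and 1092 FPKM). Immune cell markers were lower by sign in 2 of 6 (362 and 330 against 222 and 430 FPKM). Proliferation markers were lower by sign in 5 of 8 (303 and 449 against 412 and 341 FPKM). Among all tested genes 58.3% were lower by sign and 2.27% passed the test. The part of cell types or proliferation in the ribosomal protein values was not tested.

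The start sites show what the genes share in sequence. RefSeq (GRCm38.p6) gave 73 start sites for 62 of the 82 genes. The annotated first base was a C followed by at least 4 further pyrimidines at 13 of them, 17.8%, against 2.51% of all 32851 start sites in the same set, and such a run began within 10 bases of the start at 38 (52.1% against 30.7%). The windows below run 5' to 3' from 10 bases before the annotated start, with the uninterrupted pyrimidine run that begins at the start in capitals. They are shown for Rplp2 of the stalk, for Rps6, the substrate of the S6 kinases, for Rpl15, which has the longest run, for Rps21, among the lowest of the genes by fold change, and for Rps27, the gene of lowest level. Rps21 has 2 annotated starts, and the other one is a T.
Rplp2, chr7:141447641-141447665, plus strand: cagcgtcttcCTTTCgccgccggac
Rps6, chr4:86857353-86857377, minus strand: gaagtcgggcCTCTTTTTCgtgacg
Rpl15, chr14:18270972-18270996, minus strand: agaaagccttCTTCCTTTCCTCTgg
Rps21, chr2:180257369-180257393, plus strand: aggacccgccCTCCTgcccaatagt
Rps21, chr2:180257439-180257463, plus strand: agtgagcaggtaggcctcggtgcgg
Rps27, chr3:90213634-90213658, minus strand: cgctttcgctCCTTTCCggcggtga
Rplp0, which anchors the stalk, and Rpl34, the gene with the lowest fold change, have no C at an annotated start. The start is a G in Rplp0 and, in this order, a T and an A at the 2 starts of Rpl34, of which the T lies inside a run of pyrimidines.
Rplp0, chr5:115559457-115559481, plus strand: cgggtttcgaggaccgcctggttct
Rpl34, chr3:130730323-130730347, minus strand: cttttcctcttccggggacggtgct
Rpl34, chr3:130730384-130730408, minus strand: tccctgacgtacttcctgtccggcg
A window without capitals says only that the annotated base is not a C. The 13 genes with the run at the exact start and the 49 others with a RefSeq entry had about the same level (median 1166 and 1128 FPKM).

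In the window from 250 bases before to 50 bases after the start, both strands searched, the letters CCGGAAG, the core bound by ETS factors such as GABP, stood in 35.6% of the 73 ribosomal protein promoters and in 8.86% of all. AANATGGC, the core of the YY1 site, stood in 23.3% against 6.05%, and GGGCGG, the core of the SP1 site, in 63.0% against 35.7%. TATAAA was present in 9.59% against 13.6%. Small nucleolar RNA (snoRNA) genes, which guide the modification of ribosomal RNA, lay within 29 of the 82 genes on the same strand (57 snoRNA genes in all), that is 35.4% of them against 2.04% of the genes tested. The 82 genes were spread over 19 chromosomes, with 14 on chromosome 7 and 4 on the X chromosome. Their transcripts were short, with a median of 836.5 bases against 2903 for all tested genes, and their GC content was near that of other genes (51.3% against 50.5%).

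In all 4 libraries the ribosomal protein genes supplied a large part of the table. They summed to 19.2% and 21.5% of all FPKM in Control 1 and 2, and to 17.2% and 18.6% in Shh-Stk11 1 and 2. They filled 59 of the 100 highest places by mean FPKM. Their median level was 1160 FPKM, against 11.1 for the 13770 genes tested, and 53 of them reached 1000 FPKM, 64 reached 500 and 75 reached 100. Small and large subunit genes had medians of 1273 and 1160 FPKM. The highest was Rps26, of the mRNA exit region of the small subunit, at 4592 and 5720 FPKM in Control and 3515 and 4285 in Shh-Stk11. Rps15 (mean 4048 FPKM), Rpl41, the shortest ribosomal protein (3551), Rpl32 (3093) and Rps14 (2976) followed. Neighbours in this order overlapped in range, as Rps15, from 3139 to 5144 FPKM, did with Rps26.

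**Figure D1:**
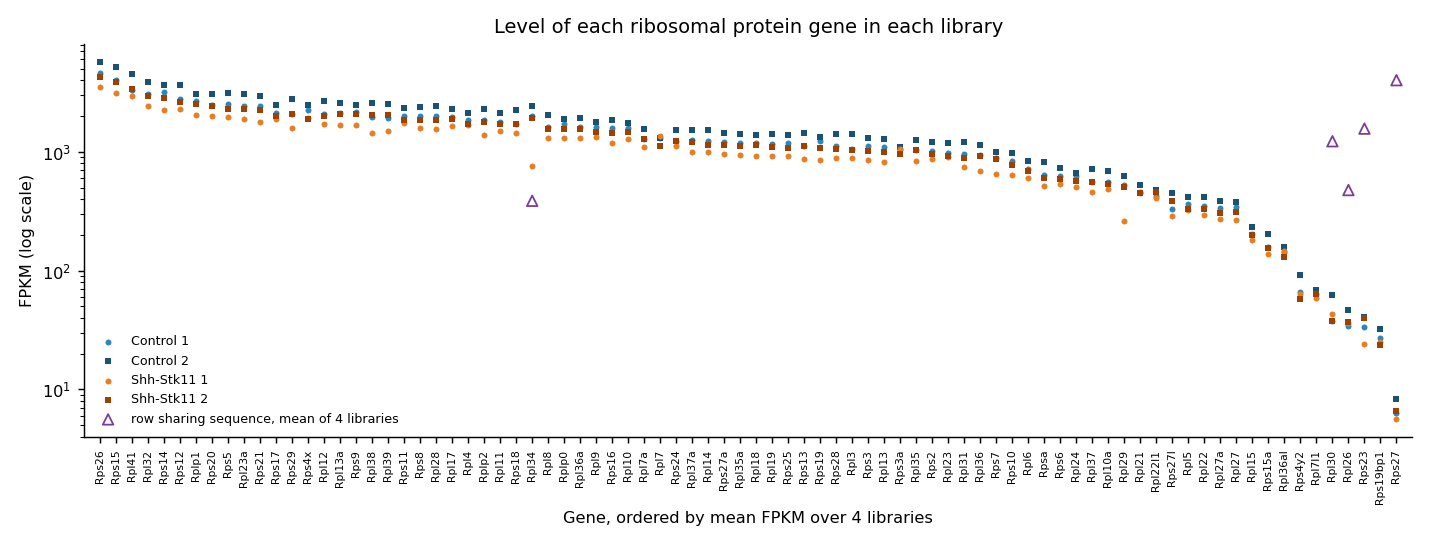
FPKM of each of the 82 genes (log axis) in each of the 4 libraries, with genes ordered by mean FPKM. Circles and squares are replicates 1 and 2, Control in blue and Shh-Stk11 in orange, and open triangles give the mean of the row that shares sequence with the gene, for the 5 genes with such a row. Most genes lie near 1000 FPKM, Control 2 is the highest point for 81 genes, and the triangles of Rpl30, Rpl26, Rps23 and Rps27 stand far above the genes themselves.

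At the lower end stood genes that every ribosome needs. Rps27 had a mean of 6.71 FPKM (6.33 and 8.35 in Control, 5.60 and 6.57 in Shh-Stk11), which is 675 times lower than Rps26. Rps23, part of the decoding centre, had a mean of 34.4 FPKM, Rpl26 of 38.3 and Rpl30 of 45.3. Among the genes under the limit were the paralogs Rpl39l (mean 0.267 FPKM), Rpl3l (0.0386) and Rpl10l, which was listed at 0, and these are known mainly from testis or muscle.

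The low values of Rps27, Rps23, Rpl26 and Rpl30 went together with an abundant second row that shared sequence. Transcripts were cut into all windows of 50 bases, the length of the reads, and matched to the other genes of GENCODE M21. The rows named in the rest of the paragraph were chosen after their values were seen, as those of at least 100 FPKM that hold at least 25% of a gene's windows. Gm9846 held 98.6% of the windows of Rps27 and stood at 4197 and 4965 FPKM in Control and 3054 and 3816 in Shh-Stk11, a mean 597 times that of Rps27. Gm15450 held 42.3% of the windows of Rps23 and stood at 1606 and 1921 FPKM in Control and 1262 and 1481 in Shh-Stk11. Gm12191 held 29.7% of Rpl30, with a mean of 1227 FPKM. Gm9846, now named Rps27rt, is annotated as protein coding, and Gm15450 and Gm12191 as processed pseudogenes. Rpl26 shared 51.9% of its windows with the processed pseudogene Gm15772, which stood at 853 and 803 FPKM in Control 1 and Shh-Stk11 2 but at 128 and 121 in Control 2 and Shh-Stk11 1. In Gm15772 each genotype thus held a high and a low library (limma adjusted p 0.98 between genotypes). Without the 5 genes that had such a partner (Rps27, Rps23, Rpl30, Rpl26 and Rpl34), the lowest true subunit gene was Rps15a with a mean of 163 FPKM, and the median of the remaining 77 genes was 1196 FPKM. The levels of these 5 genes are therefore uncertain, since reads may be counted on either copy.

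Sharing of sequence was general in the family. At least 1 window of 50 bases occurred in another annotated gene for 80 of the 82 genes, and at least 50% of the windows for 36. These 36 had a median log2 fold change of -0.31 between genotypes and the other 46 one of -0.34. Level and percent of windows shared had a Spearman's rho of 0.009 over the 82 genes. Rpl9, for example, shared 93.3% of its windows at a mean of 1551 FPKM.

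The question of the genotype comparison was whether ribosomal protein mRNA differed between Shh-Stk11 and Control lungs. None of the 82 genes passed the test (limma on log2(FPKM + 0.1), two-sided, Benjamini-Hochberg adjusted p under 0.05 over 13770 genes), whereas 313 of all genes did, 2.27% of those tested (178 lower, 1.29%, and 135 higher, 0.98%). At an unadjusted p under 0.05 the count was 0 of 82, against 15.2% of all genes. This count was 63 of 82 in limma with the replicate number as a block and 0 to 5 under the 17 other settings of the fit, and no ribosomal protein gene was called after adjustment under any of the 18. The smallest adjusted p was 0.391 in limma, for Rps19bp1 (29.7 ± 3.52 FPKM in Control and 24.3 ± 0.889 in Shh-Stk11, SD, n = 2). The largest was 0.909 in limma, for Rpl22l1.

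The direction was nonetheless shared. All 82 fold changes were below 0, as were 58.3% of those of all genes, although only 59 were below 0 after quantile normalization (with 20 above and 3, Rps12, Rps14 and Rps26, at 0), 70 after removal of a length and GC trend and 75 after rescaling to TPM. Their median log2 fold change was -0.32, or -20.0%, with an interquartile range from -0.37 to -0.27. The median of all genes was -0.05, and that of the 753 other genes of at least 100 FPKM was -0.13. The width of the interquartile range was 0.107 for the ribosomal protein genes and 0.217 for those 753. The median was -0.19 without Control 2 and -0.21 without Shh-Stk11 1, and -0.46 without Control 1 or without Shh-Stk11 2. As a share of all FPKM the genes made up 20.4 ± 1.63% in Control and 17.9 ± 0.987% in Shh-Stk11 (SD, n = 2), a difference of -2.42 percentage points. Its size changed with the library left out. The nearest libraries of different genotype, Control 1 and Shh-Stk11 2, stood at 19.2% and 18.6%. With 2 against 2 libraries an exact permutation test cannot give a two-sided p below 0.33.

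**Figure D2:**
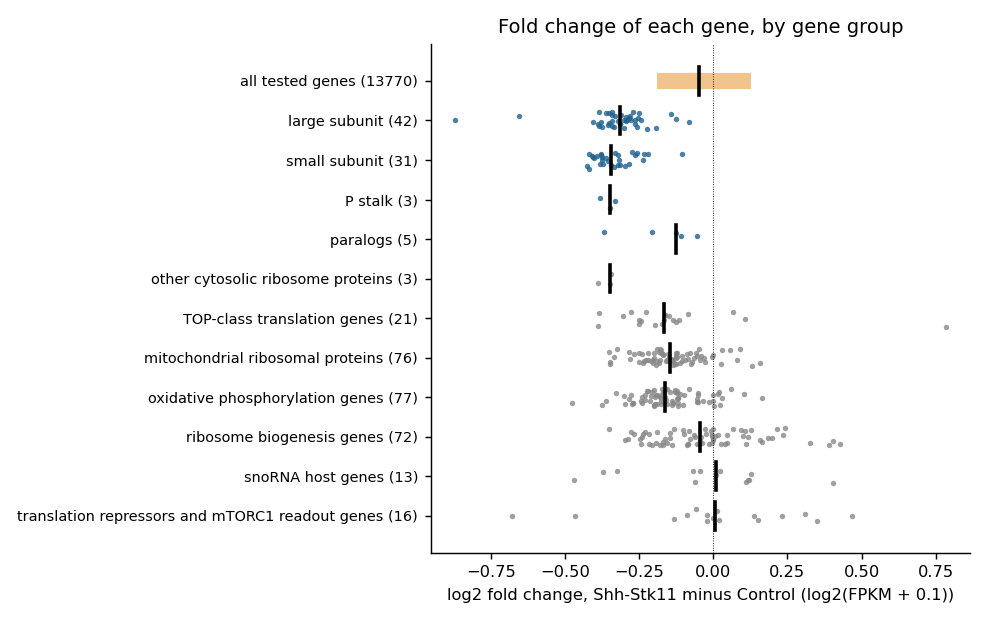
Log2 fold change of each gene (Shh-Stk11 minus Control, on log2(FPKM + 0.1)) for the ribosomal protein classes in blue and for related gene groups in grey, with the number of genes tested in brackets. Black bars are medians and the orange bar is the interquartile range of all 13770 genes. The ribosomal protein classes lie between -0.87 and -0.06, with medians of -0.31, -0.35, -0.35 and -0.13 (below 0 for 59 to 82 of the 82 genes, depending on the scaling).

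By library, Control 2 was the highest library for 81 of the 82 genes and Shh-Stk11 1 the lowest for 74. Both held for 74 genes, and for 16.5% of all genes. In 64 genes the order was Control 2, Control 1, Shh-Stk11 2 and Shh-Stk11 1. Both Shh-Stk11 libraries were below both Control libraries in 68 genes, 82.9%, against 27.6% of all genes, and above them in none, against 19.2% of all genes. The other 14 overlapped.

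Replicates of a genotype also differed in a shared direction. The median log2 difference of the 82 genes was 0.27 between Control 2 and Control 1, with 81 of 82 positive, and 0.24 between Shh-Stk11 2 and Shh-Stk11 1, with 75 positive. Over all genes these medians were 0.02 and 0.02, and over the other genes of at least 100 FPKM they were 0.14 and 0.15. Between the nearest libraries of different genotype, Shh-Stk11 2 and Control 1, the median was -0.07, and between the farthest, Shh-Stk11 1 and Control 2, it was -0.59. The pairs of equal replicate number lay between these, at -0.31 for Shh-Stk11 1 against Control 1, with 4 of 82 positive, and -0.34 for Shh-Stk11 2 against Control 2, with 0 positive. The difference between genotypes, with its median of -0.32, was thus near in size to the 0.27 and 0.24 between replicates. Levels kept their order: Spearman's rho between 2 libraries over the 82 genes was 0.968 to 0.997 in the 6 pairs, a description over genes that share each library's depth.

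**Figure D3:**
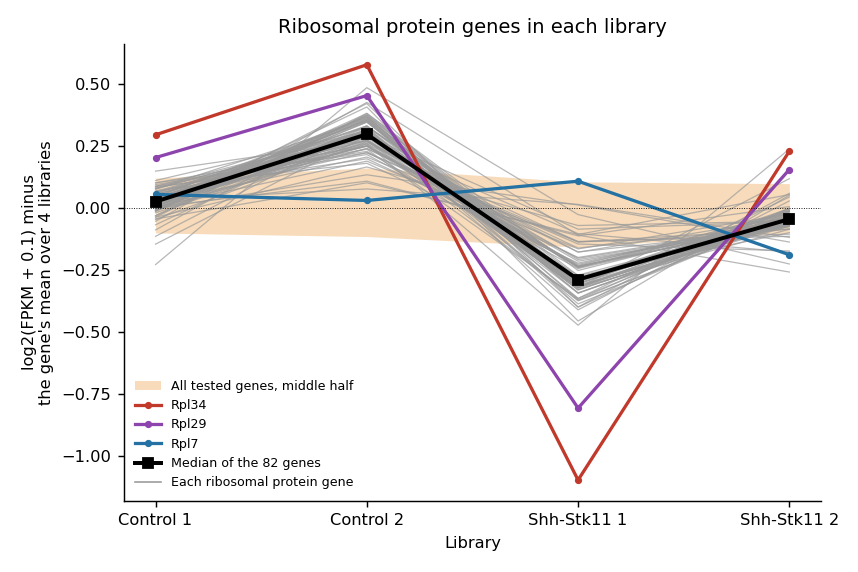
Log2(FPKM + 0.1) of each of the 82 genes minus its own mean over the 4 libraries, with the median of the 82 in black and the interquartile range of all tested genes as a band. The median of the family is 0.02 and 0.30 for Control 1 and 2 and -0.29 and -0.05 for Shh-Stk11 1 and 2, with Rpl34 and Rpl29 far below it in Shh-Stk11 1 and Rpl7 above it.

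The P stalk recruits the GTPases of translation. Rplp0 was at 1716 and 1902 FPKM in Control and 1305 and 1541 in Shh-Stk11. Its fold change was -0.35 (SE 0.22, limma adjusted p 0.514), with a 95% interval from -0.87 to 0.18. Rplp1 was at 2669 and 3083 FPKM in Control and 2044 and 2537 in Shh-Stk11, and Rplp2 at 1839 and 2281 and at 1393 and 1774. The 2 genotypes did not overlap in any of the 3, and the fold changes were -0.33 and -0.38 for Rplp1 and Rplp2 (limma adjusted p 0.593 and 0.529).

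In the small subunit, fold changes ran from -0.43 (Rps21) to -0.11 (Rps3a). Rps6, phosphorylated by the S6 kinases downstream of mTORC1, was at 628 and 735 FPKM in Control and 536 and 587 in Shh-Stk11. Its fold change was -0.28 (SE 0.18, limma adjusted p 0.528), with a 95% interval from -0.70 to 0.15. Rps19, mutated in Diamond-Blackfan anaemia, was at 1232 and 1342 FPKM in Control and 859 and 1078 in Shh-Stk11 (log2 fold change -0.42, limma adjusted p 0.42). Rps14, lost in the 5q- syndrome, had the same fold change to 2 decimals, from 3165 and 3633 to 2261 and 2847 FPKM (limma adjusted p 0.515). Rps3, at the mRNA entry channel, had a fold change of -0.39 and Rpsa, the laminin receptor homologue, one of -0.38. Rps27a, made as a fusion with ubiquitin, had one of -0.33. In each of these both Shh-Stk11 libraries were below both Control libraries, as in 82.9% of the family and 27.6% of all genes. In none did the difference pass the test.

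In the large subunit, Rpl5 and Rpl11 form with ribosomal RNA the particle that binds MDM2 and stabilises p53. Rpl5 was at 366 and 419 FPKM in Control and 327 and 331 in Shh-Stk11 (log2 fold change -0.25, limma adjusted p 0.511). Rpl11 was at 1775 and 2135 FPKM in Control and 1495 and 1719 in Shh-Stk11 (log2 fold change -0.28, limma adjusted p 0.618). Its fold change was positive after quantile normalization. Rpl38, needed for the patterning of the axial skeleton, overlapped between genotypes, with 1958 and 2594 FPKM in Control and 1426 and 2027 in Shh-Stk11. Rpl24 had a fold change of -0.26 and Rpl13a one of -0.32, and neither passed the test.

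The sex of the embryos did not match between the libraries, so the 4 X-linked genes were read apart. The log2 difference between Shh-Stk11 2, the library with Y-linked transcripts, and Shh-Stk11 1 was 0.20 for Rpl10, 0.25 for Rpl36a, 0.46 for Rpl39 and -0.03 for Rps4x, against a median of 0.24 for all 82 genes. Rps4x was at 2267 and 2465 FPKM in Control and 1911 and 1874 in Shh-Stk11 (log2 fold change -0.32, limma adjusted p 0.556). Its fold change was positive after quantile normalization.

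Of the 82 genes, 72 kept within 0.2 of the median of the family on the log2 scale in every library. The 10 that did not were Rpl34, Rpl29, Rpl7, Rps3a, Rpl36al, Rps23, Rpl30, Rpl21, Rps4y2 and Rpl26, among them 4 of the 5 genes with an abundant partner row. Rpl34 was at 1997, 2429 and 1908 FPKM in Control 1, Control 2 and Shh-Stk11 2, but at 761 in Shh-Stk11 1. Its partner Rpl34-ps1, with 37.9% of its windows, was at 373, 411, 373 and 391 FPKM in the same libraries. Rpl29 was at 525, 625, 508 and 261 FPKM in that order. The low value of Shh-Stk11 1 therefore set their fold changes, which were -0.87 and -0.65 (limma adjusted p 0.412 and 0.403) and -0.21 and -0.17 without that library. Rpl7 went the other way in Shh-Stk11 1, with 1318 and 1296 FPKM in Control and 1368 and 1113 in Shh-Stk11, and it was the only gene of the family with its highest value there. Rps3a was at 1064 and 1098 FPKM in Control and 1051 and 959 in Shh-Stk11. The fold changes of Rpl7 and Rps3a were positive after quantile normalization and in TPM.

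The paralogs stood nearer to 0 than the subunit genes, with a median log2 fold change of -0.13 over 5 genes. Rpl22l1 was at 428 and 474 FPKM in Control and 410 and 458 in Shh-Stk11, a level above that of its parent Rpl22 in each library (348 and 417, 292 and 328). The log2 fold change was -0.06 for Rpl22l1 and -0.30 for Rpl22, and neither passed the test. That of Rpl22l1 was positive after quantile normalization and in TPM. Rps27l was at 331 and 447 FPKM in Control and 286 and 388 in Shh-Stk11, Rpl36al at 144 and 158 and at 146 and 131, and Rpl7l1 at 63.5 and 68.3 and at 58.6 and 63.6. All 4 overlapped between genotypes. Rps4y2, which GENCODE M21 lists as the processed pseudogene Rps4l, was at 65.9 and 91.9 FPKM in Control and 63.4 and 57.2 in Shh-Stk11 (log2 fold change -0.37, limma adjusted p 0.412). The difference between the paralogs and the subunit genes was not tested.

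The genes that work with the ribosome were taken from lists by function. Fau and Gnb2l1 (Rack1), whose products sit in the ribosome although their symbols do not say so, had fold changes of -0.39 and -0.35, beside the median of -0.32 of the 82 genes, and neither was called. Gnb2l1 was at 1711 and 2073 FPKM in Control and 1357 and 1613 in Shh-Stk11. Translation factors and other genes with a TOP mRNA had a median of -0.17, with 18 of 21 below 0 and 0 called, beside 58.3% below 0 and 2.27% called among all genes. Eef1a1, the elongation factor that brings tRNA to the ribosome, was at 6252 and 6858 FPKM in Control and 5454 and 5744 in Shh-Stk11 (log2 fold change -0.23, limma adjusted p 0.769).

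Mitochondrial ribosomal proteins had a median of -0.15 (69 of 76 below 0) and nuclear genes of oxidative phosphorylation one of -0.16 (69 of 77). Genes of ribosome biogenesis and RNA polymerase I had a median of -0.04 (48 of 72 below 0), near that of all genes, and other snoRNA host genes one of 0.01 (6 of 13). No gene of these 4 lists was called, beside 2.27% of all genes. In Control, the median of replicate 2 minus replicate 1 was 0.23 for the mitochondrial ribosomal proteins and 0.26 for oxidative phosphorylation, and in Shh-Stk11 it was 0.17 and 0.25. For ribosome biogenesis they were 0.22 and -0.13, of unlike sign.

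Of 16 genes that repress translation or read out mTORC1 activity 0 were called, beside 2.27% of all genes, and their median was 0.01. Eif4ebp1, the translation repressor that mTORC1 phosphorylates, was at 66.0 and 68.9 FPKM in Control and 46.0 and 51.7 in Shh-Stk11 (log2 fold change -0.47, limma adjusted p 0.133). Rps6kb1, the S6 kinase itself, was at 10.2 and 12.1 FPKM in Control and 16.1 and 14.8 in Shh-Stk11 (log2 fold change 0.47, limma adjusted p 0.169). The genotypes did not overlap in either. Over the whole list both Shh-Stk11 libraries were below both Control libraries for 4 of the 16 genes and above them for 2, beside 27.6% and 19.2% of all genes. Larp1, which binds the TOP tract, had a fold change of 0.15 and Myc, a transcriptional activator of ribosomal genes, one of 0.00, with 6.69 and 6.22 FPKM in Control and 6.34 and 6.57 in Shh-Stk11.

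Transcript length moved with these differences. Over the 13634 tested genes with an annotated transcript, ordered by length in 10 groups, the median log2 fold change of the genes outside the family went from -0.18 in the shortest group, of 71 to 1139 bases, to 0.17 in the longest. The replicate difference went from 0.20 to -0.21 in Control and from 0.19 to -0.17 in Shh-Stk11 (replicate 2 minus replicate 1). The shortest group held 63 of the 82 ribosomal protein genes, with medians of -0.33, 0.27 and 0.25 for the same 3 differences. Within that group the family thus lay beyond the other short genes in the same direction in each comparison. With the length and GC trend of each library removed, the median of the 82 genes was -0.11 and that of all genes 0.00. The replicate differences of the family were then 0.11 in Control and 0.04 in Shh-Stk11, and 40 genes had both Shh-Stk11 libraries below both Control libraries and 2 above, beside 23.1% and 22.2% of all genes on that scale. The part of length in the genotype difference cannot be told apart from other differences between these libraries.

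**Figure D4:**
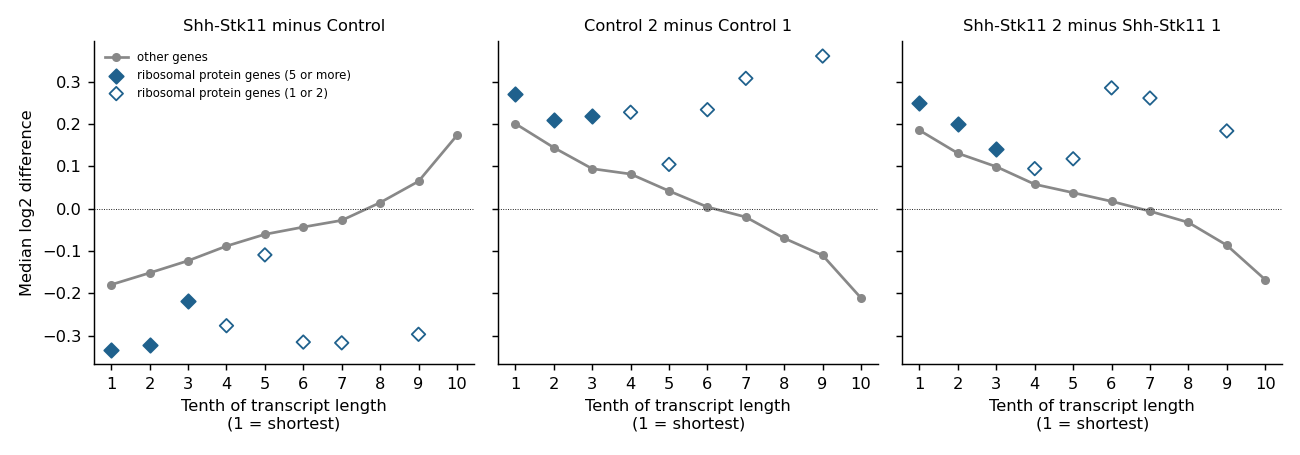
Median log2 difference in 10 groups of genes by transcript length (1 is the shortest) for Shh-Stk11 minus Control, Control 2 minus Control 1 and Shh-Stk11 2 minus Shh-Stk11 1. Grey circles are genes outside the family, filled diamonds groups of at least 5 ribosomal protein genes and open diamonds groups of 1 or 2. In the shortest group the other genes stand at -0.18, 0.20 and 0.19 and the 63 ribosomal protein genes at -0.33, 0.27 and 0.25.

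Within the family, the log2 fold change had a Spearman's rho of -0.46 with GC content and of 0.22 with transcript length over the 82 genes, which share all 4 libraries, so these are descriptions. Split by the sequence features given above, the median fold change was -0.33 for the 13 genes with a TOP run at the annotated start and -0.31 for the 49 others with an entry, and -0.32 for genes with and -0.32 for genes without a snoRNA gene inside.

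**Figure D5:**
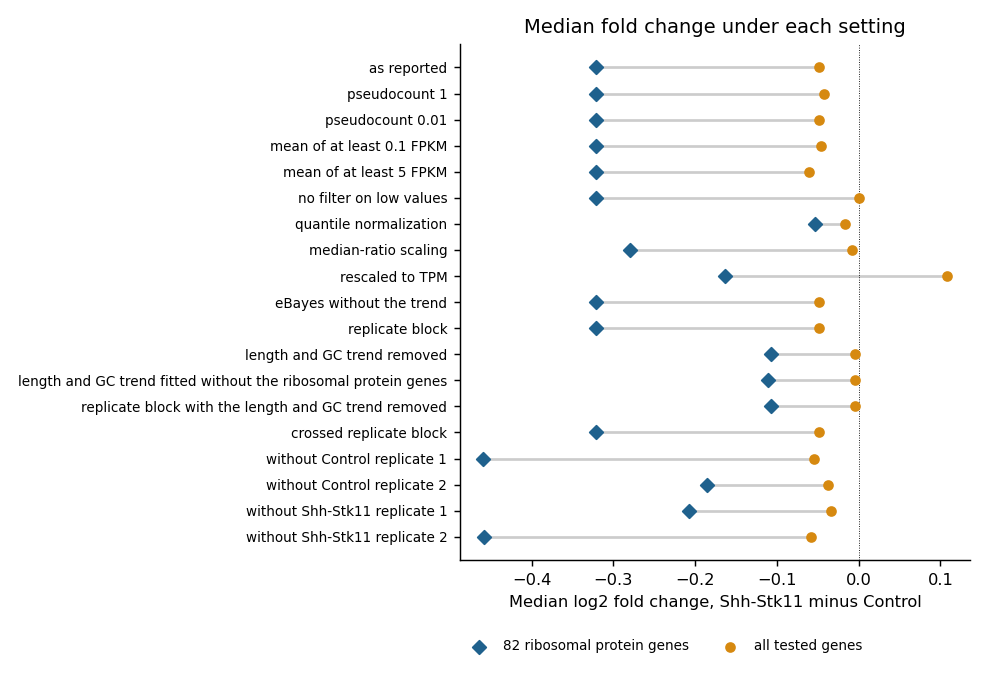
Median log2 fold change (Shh-Stk11 minus Control) of the 82 ribosomal protein genes (diamonds) and of all tested genes (circles) as reported and under each other setting of the fit. The family stays below the other genes throughout, from -0.46 without Control replicate 1 to -0.05 after quantile normalization, and 0 of its genes are called under any setting.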

How the data were processed

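RNA-seq of 4 whole-lung libraries (single-end reads of 50 bases) was deposited by the authors as 1 table of FPKM per gene, made per the submitters' processing notes with TopHat2 2.0.13 and Cufflinks 2.2.1. The notes name the builds GRCm38 and mm9, without saying which gave the table. How reads with several matches were shared between genes is not given in the sources used here.

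Values were taken as log2(FPKM + 0.1) for 13770 genes (mean FPKM 0.5 or more) and fitted in limma 3.58.1 (R 4.3.3) with genotype as the only term and a trended prior (4.48 prior and 2 residual degrees of freedom). Fold changes are differences on that scale, p-values are two-sided and adjusted by Benjamini-Hochberg over all genes tested, and the threshold was 0.05. The fit was also run on data simulated with independent noise for each gene, as a check of the code. Such data hold no shift shared by a family of genes, and nothing here rests on the outcome. The labels call the 2 embryos of a genotype replicates. Transcript length, GC content and shared windows came from GENCODE M21 (22160 of 22556 symbols matched), start sites from RefSeq.

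Genes were named as the 5 highest and 5 lowest by level and by fold change, genes under the limit, stalk genes, paralogs with their parents, X-linked genes and 12 genes with known roles. The results of some genes are not reported here. The members and lists were chosen with earlier results of these data known. In all, 19 alternatives were planned and 1 was added after seeing the data.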

Additional observations from a re-analysis of the deposited data

How the results depend on the processing

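The numbers of genes called were 135 higher and 178 lower in Shh-Stk11. The count of higher genes left the range of 1.5 times with no filter on low values (0), the length and GC trend removed (85) or fitted without the ribosomal protein genes (84). The count of lower genes did so with a mean of at least 5 FPKM (90, with 110 higher), no filter (1), TPM (91, with 100 higher) and the trend removed or fitted without them (100 and 99). Leaving out 1 library, so that the lone library of a genotype is assumed to vary like the other genotype, gave 15 to 64 higher and 23 to 127 lower.

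The labels tie no replicate number to a shared litter or batch, so the numbers were not taken to pair the libraries. Over 13770 genes replicates of equal number did not deviate together gene by gene (correlation -0.11). A correlation does not register a shift common to all genes it covers. Over the 82 genes it was 0.13, although replicate 2 was higher than replicate 1 for 81 genes in Control and 75 in Shh-Stk11. By length group (shortest to longest), this difference in other genes went from 0.20 to -0.21 in Control and from 0.19 to -0.17 in Shh-Stk11. Whether the numbers stand for a shared batch was not tested. A block with the numbers crossed, added after seeing the data, gave 360 higher and 315 lower genes. A replicate block gave 6 higher and 7 lower genes, and 3 and 4 with the trend removed as well. In the block 63 ribosomal protein genes had an unadjusted p under 0.05 and 0 were called (smallest limma adjusted p 0.186).

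No ribosomal protein gene was called under any setting. Their median of -0.32 was -0.054 after quantile normalization, -0.11 with the trend removed (also with the block) or fitted without them, and -0.46 to -0.19 when 1 library was left out. It was -0.16 in TPM, where the median of all genes moved to 0.11, and -0.28 with median-ratio scaling. The difference in summed share was -3.57 to -1.26 percentage points when 1 library was left out, and -2.42 without the paralogs and Rps19bp1.

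Of the 39 named genes, some turned positive. With the trend removed (with or without the block) the log2 fold changes were 0.16 for Rpl26, 0.18 for Rpl36al, 0.019 for Rpl41, 0.019 for Rplp1, 0.17 for Rps27, 0.015 for Rps27l and 0.032 for Rps3a, and with the trend fitted without the family 0.16, 0.17, 0.016, 0.016, 0.17, 0.011 and 0.029. After quantile normalization they were 0.025 for Rpl10, 0.028 for Rpl11, 0.050 for Rpl22l1, 0.054 for Rpl32, 0.018 for Rpl36a, 0.10 for Rpl41, 0.20 for Rpl7, 0.027 for Rplp1, 0.022 for Rps15, 0.13 for Rps3a and 0.028 for Rps4x. In TPM they were 0.032 for Rpl21, 0.10 for Rpl22l1, 0.016 for Rpl26, 0.031 for Rpl36al, 0.075 for Rpl7, 0.049 for Rpl7l1 and 0.052 for Rps3a. Without 1 library the ranges that crossed 0 were -0.135 to 0.025 for Rpl22l1, -0.36 to 0.076 for Rpl26, -0.61 to 0.10 for Rpl30, -0.23 to 0.065 for Rpl7, -0.59 to 0.12 for Rps23 and -0.43 to 0.014 for Rps27l. The cause was not tested.

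The fold changes of the 82 genes had a median standard error of 0.22, and all but 2 lay between -0.43 and -0.06. The number of libraries, 2 a genotype, limits every comparison, and the table holds no counts, so no counting interval is given.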
